A study of Homo sapiens with 4 samples.

Results

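Genes of cholesterol synthesis, uptake and efflux were followed in a pair of lines made from MDA-MB-231, an established line of mesenchymal, triple-negative human breast cancer cells. The 30 genes were chosen by name, as a list of pathway members, with earlier results of these data known. All 30 matched a single row each among the 43714 genes of the count table. They comprise 19 enzymes from acetyl-CoA to cholesterol, 5 genes of the SREBP control system, the sterol carrier gene STARD4, and 5 genes of the LXR receptors, sterol export and lipoprotein receptor turnover. All 30 had enough counts to be tested.

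Both lines carry the 7TGP reporter, in which 7 TCF sites drive EGFP, so that fluorescence follows Wnt/beta-catenin transcription, and both were kept in DMEM with 10% serum after selection with puromycin at 3 ug/mL. A reporter-positive line (MDA-MB-2317TGP-POS, here POS, over 80% EGFP-positive) and a reporter-negative line (MDA-MB-2317TGP-NEG, here NEG, over 95% EGFP-negative, labelled as the control) were obtained by 8 rounds of sorting, and each gave 2 RNA sequencing libraries. A single line stands for each reporter state, so reporter activity cannot be told apart from any other difference between the lines. Whether a line's libraries are from separate cultures is not in the labels, and p-values therefore reflect no more than the variation between these libraries, possibly technical.

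Cells make cholesterol from acetyl-CoA through mevalonate, the prenyl diphosphates, squalene and lanosterol. Most enzymes of the route are under the SREBP transcription factors, membrane proteins that SCAP carries from the endoplasmic reticulum to the Golgi for cleavage when sterol is scarce, and that the INSIG proteins hold back when sterol is plentiful. The LXR receptors respond to oxidised sterols and switch on export through ABCA1 and ABCG1, the lipoprotein receptor-degrading ubiquitin ligase MYLIP, and SREBF1. The comparison asks how these genes differ between the reporter-positive and the reporter-negative line, step by step.

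Total gene counts were 55894092 to 63034563 per library. Of the markers fixed for the parent line, all 5 (VIM, CD44, AXL, CAV1, ANXA1) exceeded 10 CPM (counts scaled by library total and TMM factor) in the library where each was highest. They were not level between the lines: VIM, the vimentin gene, was at 2714 and 2625 CPM in NEG and 1257 and 1343 CPM in POS and fell by 1.04 on the log2 scale, CAV1 and ANXA1 fell by 0.49 and 0.38, CD44 rose by 0.23, and AXL did not pass. ESR1, the oestrogen receptor gene, was at 4.88 to 6.18 CPM, PGR at 0.331 to 0.619 CPM and ERBB2 at 63.8 to 81.1 CPM, and ERBB2 fell by 0.34 on the log2 scale. Of the epithelial markers EPCAM was at most 4.74, CDH1 at most 0.859 and ESRP1 at most 0.621 CPM, while KRT19, a keratin gene, was at 424 and 456 CPM in NEG and 291 and 315 CPM in POS and fell by 0.54 on the log2 scale (edgeR adjusted p = 4.38e-05). Markers of hepatocytes (ALB, APOA1, CYP7A1) summed to 0.439 to 0.520 CPM and those of fibroblasts (COL1A1, DCN, LUM) to 5.60 to 8.60 CPM, with LUM higher in POS (log2 fold change 0.75; edgeR adjusted p = 0.00557). Of the leukocyte markers, CD68 was at 23.0 and 26.6 CPM in NEG and 15.8 and 18.0 CPM in POS and LYZ at 4.72 and 4.80 CPM in NEG and 1.89 and 2.21 CPM in POS, and both fell, by 0.56 and 1.22 on the log2 scale. PTPRC was at most 2.90 CPM and CD3E at most 0.114 CPM in any library. The endothelial markers CDH5 and VWF stayed at or below 1.55 CPM while PECAM1 was at 58.9 to 88.9 CPM. The part of these markers in the results was not tested, and fewer cells of a type cannot be told apart from less RNA per cell.

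In POS, relative to NEG, 14 of the 30 genes fell, 4 rose and 12 stayed short of the threshold (edgeR quasi-likelihood test, adjusted p under 0.05 by Benjamini-Hochberg over 30952 genes). Among all genes tested 10.9% were lower and 11.6% were higher by the same rule. Of the 16957 protein-coding genes among them, the type of all 30 members, 2508 were lower and 2491 were higher. The genes that fell were 13 of the 19 synthesis enzymes and MYLIP. No enzyme rose by edgeR, also at an unadjusted p under 0.05 (0 of 19), by DESeq2 (0) or by limma-voom (0). Those that rose were INSIG1, SREBF1, ABCA1 and NR1H3. Median log2 fold change was -0.32 over the 19 enzymes and -0.0046 over all genes tested. Summed over the 19 enzymes, levels were 1375 and 1346 CPM in NEG and 1004 and 1058 CPM in POS, so that both POS libraries lay below both NEG libraries and the mean stood at 75.8% of the NEG level. Libraries of the lines overlapped for 7 of the 30 genes, and 57.7% of all genes tested had no such overlap. Without NEG library 1, and likewise without NEG library 2, fewer of the 30 genes passed in each direction. In such fits a lone library of a line is assumed to vary like the other line's, and the share of all genes called was not computed.

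**Figure D1:**
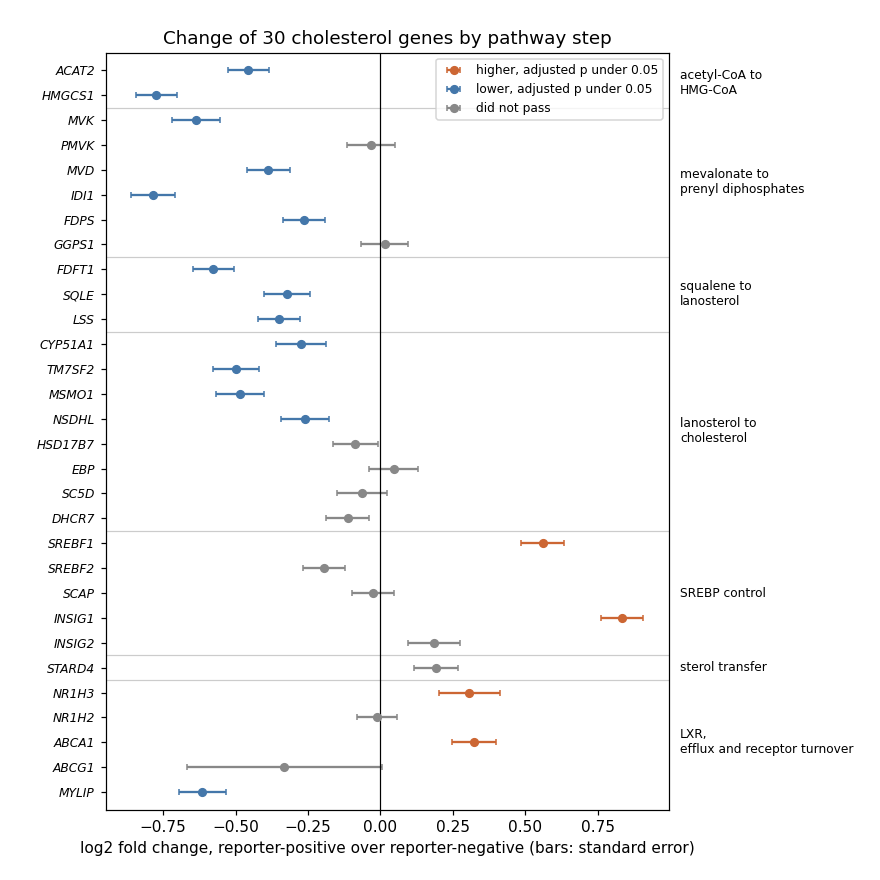
Log2 fold change of each of the 30 genes, reporter-positive over reporter-negative line, with its standard error as a bar, ordered by pathway step from acetyl-CoA to efflux. Points for 13 enzymes and MYLIP lie below 0 and passed the test, while INSIG1, SREBF1, NR1H3 and ABCA1 lie above 0 and passed.

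Promoter sequence is shown for the genes with the smallest adjusted p whose window held a searched motif, because these genes passed the test between the lines. Windows from RefSeq on GRCh38.p14 (250 bases before to 50 after each start) were matched for 26 of the 30 genes, all but ABCG1, ACAT2, FDFT1 and SQLE. Printed below is the part before both the RefSeq start and the GENCODE gene span, 5′ to 3′ on the gene's strand, with motif letters in capitals. The motifs were CCAAT, the box bound by NF-Y, a factor that works beside SREBP at sterol genes, and TCACCCCAC and its relaxed form TCACNCCAC, the core of a sterol regulatory element; TCACCCCAC is also a match to the relaxed form. Both strands were searched, so that ATTGG is CCAAT on the other strand. MVK, whose window held CCAAT too, is not printed because the bases before its RefSeq start lie inside its GENCODE span. SREBF2, which did not pass, is added after its values were seen because no other member window held TCACCCCAC.
INSIG1, chr7:155297628-155297775, forward strand: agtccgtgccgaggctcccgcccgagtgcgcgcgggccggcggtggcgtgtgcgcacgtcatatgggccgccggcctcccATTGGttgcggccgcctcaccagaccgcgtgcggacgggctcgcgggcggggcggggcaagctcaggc
HMGCS1, chr5:43313513-43313662, reverse strand: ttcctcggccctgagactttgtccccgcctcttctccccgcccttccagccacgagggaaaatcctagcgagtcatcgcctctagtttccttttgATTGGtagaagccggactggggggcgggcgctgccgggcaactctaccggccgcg
IDI1, chr10:1049171-1049369, reverse strand: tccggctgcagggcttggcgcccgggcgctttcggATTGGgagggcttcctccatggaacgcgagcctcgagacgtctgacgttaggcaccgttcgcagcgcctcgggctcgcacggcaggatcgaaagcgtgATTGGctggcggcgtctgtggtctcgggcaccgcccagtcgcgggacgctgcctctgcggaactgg
MYLIP, chr6:16128836-16129085, forward strand: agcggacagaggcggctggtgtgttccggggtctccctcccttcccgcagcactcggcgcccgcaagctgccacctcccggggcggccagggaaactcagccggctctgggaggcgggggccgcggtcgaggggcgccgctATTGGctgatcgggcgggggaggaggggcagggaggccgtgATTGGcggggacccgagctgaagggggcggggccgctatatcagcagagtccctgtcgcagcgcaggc
TM7SF2, chr11:65111622-65111844, forward strand: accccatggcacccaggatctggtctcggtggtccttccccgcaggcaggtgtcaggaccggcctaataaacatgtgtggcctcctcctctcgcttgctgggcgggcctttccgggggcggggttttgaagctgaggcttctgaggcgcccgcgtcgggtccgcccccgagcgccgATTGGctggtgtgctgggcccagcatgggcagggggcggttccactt
MSMO1, chr4:165327419-165327622, forward strand: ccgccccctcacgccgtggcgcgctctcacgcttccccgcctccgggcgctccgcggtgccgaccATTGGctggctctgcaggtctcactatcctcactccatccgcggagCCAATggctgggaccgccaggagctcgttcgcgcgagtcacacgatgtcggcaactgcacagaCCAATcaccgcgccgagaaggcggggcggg
SREBF2, chr22:41832855-41833078, forward strand: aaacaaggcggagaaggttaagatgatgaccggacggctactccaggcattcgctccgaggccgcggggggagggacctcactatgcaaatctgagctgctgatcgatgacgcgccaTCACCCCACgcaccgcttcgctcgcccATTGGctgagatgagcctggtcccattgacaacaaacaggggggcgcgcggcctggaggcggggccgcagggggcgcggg

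A CCAAT box was found in the windows of 19 of 26 members (73.1%), against 39.7% of all 27305 genes with a window and 34.6% of all 35116 windows. Among members that fell it was in 10 of 11, among those that rose in 2 of 4, and among those that did not pass in 7 of 11. TCACCCCAC was in the window of SREBF2 and of no other member, against 0.535% of all genes with a window, and the relaxed form gave the same single member against 1.39% of all genes. The matches describe letters in these windows only, and binding was not measured.

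The enzymes that open the route both fell. HMGCS1 (ENSG00000112972, chromosome 5, 43289395 to 43313512 on GRCh38, reverse strand), which makes HMG-CoA from acetoacetyl-CoA and acetyl-CoA, was at 173 and 174 CPM in NEG and 99.5 and 104 CPM in POS. Both POS libraries thus lay well below the NEG pair, at 58.5% of their level (log2 fold change -0.77, standard error 0.07; edgeR adjusted p = 8.51e-08). Of all genes tested, 4.34% were at or below this change. An antisense gene inside the HMGCS1 span, ENSG00000261604, had 27.4% as many counts, 3013 and 2873 in NEG and 1692 and 1555 in POS. With these removed HMGCS1 had a log2 fold change of -0.79 (edgeR adjusted p = 5.33e-08). The antisense counts may be reads of HMGCS1 itself, so the remainder is not a separate check. ACAT2 (ENSG00000120437, chromosome 6, 159760328 to 159779055, forward strand), the cytosolic thiolase that joins acetyl-CoA units, was at 71.9 and 71.4 CPM in NEG and 50.4 and 54.0 CPM in POS (log2 fold change -0.46, standard error 0.07; edgeR adjusted p = 6.53e-05). The lines did not overlap. SOD2, a mitochondrial superoxide dismutase gene that shares 2202 bases with ACAT2 on the opposite strand and had 261% of its counts, rose (log2 fold change 0.82), the opposite direction to ACAT2. TCP1, a chaperonin gene that shares 558 bases with it on the opposite strand, had 119% of its counts.

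Between mevalonate and the prenyl diphosphates 4 of 6 enzymes fell. IDI1 (ENSG00000067064, chromosome 10, 1039152 to 1049170, reverse strand), the isomerase that supplies dimethylallyl diphosphate, was at 120 and 111 CPM in NEG and 64.3 and 69.7 CPM in POS. Its log2 fold change of -0.79 (standard error 0.08; edgeR adjusted p = 1.34e-07) was the lowest of the 30. IDI2-AS1 on the opposite strand had 82.7% of the counts of IDI1. The 17.3% that remained without it gave a log2 fold change of -1.09 (edgeR adjusted p = 0.0120). For the same reason as with HMGCS1, this is not a separate check. MVK, mevalonate kinase (ENSG00000110921, chromosome 12, 109573255 to 109598117, forward strand), was at 37.2 and 37.1 CPM in NEG and 25.8 and 22.0 CPM in POS, again with no overlap (log2 fold change -0.64, standard error 0.08; edgeR adjusted p = 7.06e-06). MMAB, a cobalamin enzyme gene that shares 620 bases with MVK on the opposite strand, had 86.4% of the counts of MVK and fell by 0.27 on the log2 scale.

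MVD, which decarboxylates mevalonate diphosphate, was at 42.4 and 44.5 CPM in NEG and 34.0 and 32.4 CPM in POS (log2 fold change -0.39; edgeR adjusted p = 5.32e-04). FDPS, the farnesyl diphosphate synthase gene, was at 146 and 140 CPM in NEG and 121 and 118 CPM in POS, a smaller drop by 0.27 on the log2 scale (edgeR adjusted p = 0.00997). The call for FDPS was lost without either NEG library (edgeR adjusted p = 0.302 and 0.129). RUSC1-AS1 on the opposite strand had 65.9% of the counts of FDPS. The 34.1% that remained had a log2 fold change of -0.27 (edgeR adjusted p = 0.0118), again not a separate check. PMVK, phosphomevalonate kinase, was at 18.6 and 19.2 CPM in NEG and 19.1 and 17.8 CPM in POS, and these overlapped. GGPS1, which diverts farnesyl diphosphate to geranylgeranyl diphosphate and thus away from sterols, was at 30.5 and 30.1 CPM in NEG and 28.6 and 32.7 CPM in POS. Neither passed (edgeR adjusted p = 0.851 and 0.937). GGPS1 counts cannot be told apart from those of ENSG00000285053, which shares 15963 bases with it on the same strand and had 198% of its counts. ARID4B, which shares only 870 bases with GGPS1 on the opposite strand, had 322% of its counts.

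All 3 enzymes from squalene to lanosterol fell. FDFT1, squalene synthase and the committed step to sterols (ENSG00000079459, chromosome 8, 11795573 to 11839309, forward strand), was at 65.0 and 67.2 CPM in NEG and 43.3 and 45.3 CPM in POS. The lines were apart by many times the spread within either (log2 fold change -0.58, standard error 0.07; edgeR adjusted p = 3.57e-06), and 99.7% of its counts were free of an overlapping gene. SQLE, squalene epoxidase (ENSG00000104549), was at 26.9 and 28.0 CPM in NEG and 20.8 and 23.1 CPM in POS (log2 fold change -0.32; edgeR adjusted p = 0.00567), with no overlapping gene. Its call was lost without NEG library 2 (edgeR adjusted p = 0.0903). LSS, lanosterol synthase (ENSG00000160285, chromosome 21, 46188141 to 46228824, reverse strand), was at 175 and 168 CPM in NEG and 138 and 131 CPM in POS (log2 fold change -0.35; edgeR adjusted p = 0.00123), and its call was lost without NEG library 1 (edgeR adjusted p = 0.114). ENSG00000223901 on the opposite strand had 11.8% of the counts of LSS. Less overlapping counts, LSS had a log2 fold change of -0.36 (edgeR adjusted p = 9.76e-04), which is not a separate check either.

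Of 8 enzymes from lanosterol to cholesterol, 4 fell and 4 did not pass. MSMO1, which begins removal of the methyl groups at C4 (ENSG00000052802, chromosome 4, 165327623 to 165343160, forward strand), was at 150 and 142 CPM in NEG and 95.8 and 113 CPM in POS. It has no overlapping gene, and its lines did not overlap (log2 fold change -0.49, standard error 0.08; edgeR adjusted p = 1.69e-04). TM7SF2, a C14-sterol reductase gene, was at 23.7 and 22.9 CPM in NEG and 16.5 and 16.5 CPM in POS (log2 fold change -0.50; edgeR adjusted p = 8.98e-05). Its neighbour VPS51, which shares 16 bases with it, had 289% of its counts. CYP51A1, the lanosterol demethylase gene, was at 97.2 and 90.7 CPM in NEG and 70.3 and 85.1 CPM in POS (log2 fold change -0.27; edgeR adjusted p = 0.0269). ENSG00000285772, which spans it on the same strand, had 101% of its counts, ENSG00000285953 had 51.9%, and CYP51A1 also has pseudogene copies. POS library 2 lay close to the NEG pair, and the call was lost in 3 of the 4 fits without a single library (edgeR adjusted p = 0.299 and 0.0614 without NEG libraries 1 and 2, and 0.0799 without POS library 1). NSDHL, which acts with MSMO1 at C4, was at 23.5 and 21.7 CPM in NEG and 18.3 and 19.4 CPM in POS (log2 fold change -0.26; edgeR adjusted p = 0.0257). It lost its call without the same 3 libraries (edgeR adjusted p = 0.369, 0.0643 and 0.0517) and with DESeq2 (adjusted p = 0.0975).

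The other 4 act after or alongside those. HSD17B7, the 3-ketosterol reductase gene of C4 demethylation, was at 25.3 and 24.8 CPM in NEG and 23.9 and 23.3 CPM in POS (edgeR adjusted p = 0.50), and it has a pseudogene copy, HSD17B7P2, with which reads may be exchanged. EBP, the sterol isomerase gene, was at 21.1 and 19.7 CPM in NEG and 20.0 and 22.1 CPM in POS, and SC5D, the sterol desaturase gene, was at 31.7 and 32.6 CPM in NEG and 28.0 and 33.6 CPM in POS. Both overlapped between the lines (edgeR adjusted p = 0.780 and 0.682). DHCR7, which reduces 7-dehydrocholesterol to cholesterol, was at 96.4 and 101 CPM in NEG and 87.3 and 95.6 CPM in POS (log2 fold change -0.11; edgeR adjusted p = 0.327). Without POS library 2, SC5D and DHCR7 passed as lower (edgeR adjusted p = 0.0405 and 0.0132). The counts of HMGCS1 divided by those of DHCR7 in the same library were 1.79 and 1.72 in NEG and 1.14 and 1.08 in POS. HMGCS1 thus lay lower against DHCR7 in both POS libraries. Library scaling does not touch such a ratio, and its size also reflects the lengths of both genes. A ratio of this kind restates the changes of its 2 genes and is no separate result.

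**Figure D2:**
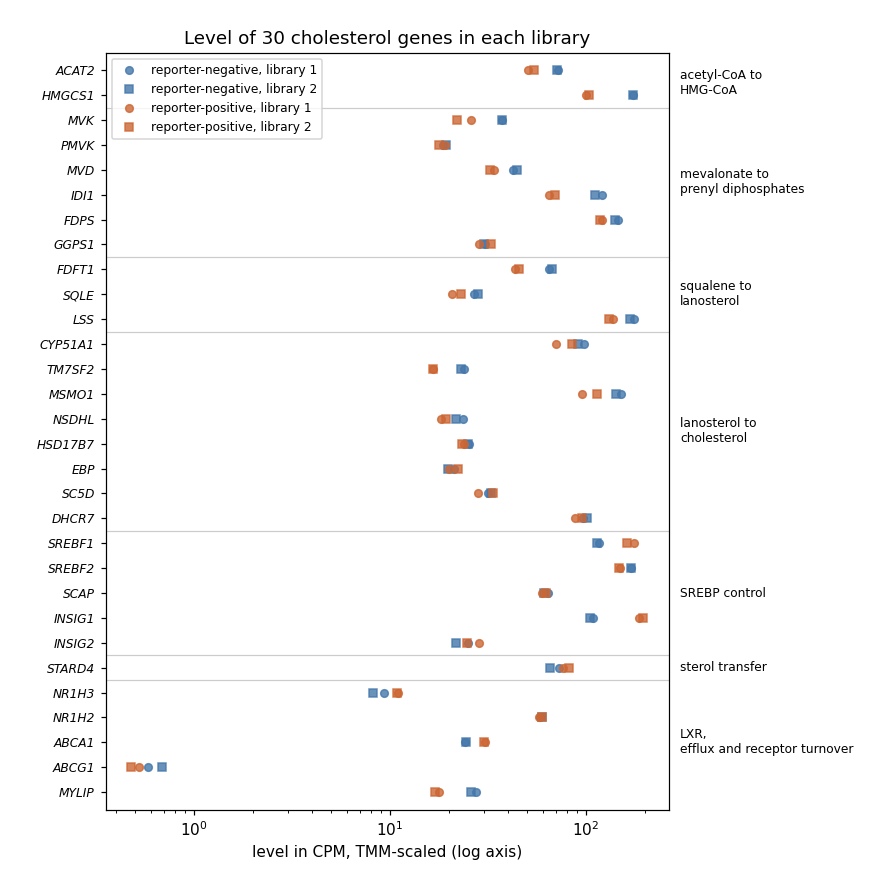
Level of each of the 30 genes in the 4 libraries, in CPM on a log axis, in blue for the reporter-negative and orange for the reporter-positive line, with circles for library 1 and squares for library 2. HMGCS1 and IDI1 show the clearest gap to the left for the reporter-positive libraries and INSIG1 the clearest gap to the right, while ABCG1 stays under 1 CPM in all 4.

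In the SREBP control system the retention gene INSIG1 and the transcription factor gene SREBF1 rose and the other 3 genes did not pass. INSIG1 (ENSG00000186480, chromosome 7, 155297776 to 155310235, forward strand), whose protein retains SCAP in the endoplasmic reticulum and which is itself a textbook SREBP target, was at 109 and 105 CPM in NEG and 185 and 196 CPM in POS. It rose 1.78-fold with no overlapping gene (log2 fold change 0.83, standard error 0.07; edgeR adjusted p = 3.60e-08), and 95.4% of all genes tested were at or below this change. INSIG2, its paralogue, was at 25.0 and 21.8 CPM in NEG and 28.5 and 24.7 CPM in POS, which overlapped (log2 fold change 0.19; edgeR adjusted p = 0.160), and it passed without POS library 2 (edgeR adjusted p = 0.00426). The count ratio of INSIG1 to INSIG2 was 4.35 and 4.82 in NEG and 6.50 and 7.93 in POS. The mean ratio was 1.57-fold higher in POS, and that of INSIG1 to HMGCS1, another SREBP target, was 3.05-fold higher, both given without a test.

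SREBF1 (ENSG00000072310, chromosome 17, 17810399 to 17837002, reverse strand), which encodes the SREBP forms that favour fatty acid genes, was at 116 and 113 CPM in NEG and 176 and 162 CPM in POS (log2 fold change 0.56, standard error 0.07; edgeR adjusted p = 8.13e-06). RAI1, a neighbour on the opposite strand that shares 1055 bases with it, had 64.4% of its counts and rose as well (log2 fold change 0.40). With all counts of overlapping genes removed, 35.2% of SREBF1 counts remained and their log2 fold change was 0.86 (edgeR adjusted p = 4.21e-08). RAI1 overlaps SREBF1 only in part, so this removes too many counts, and 0.86 is not a corrected estimate. SREBF2 (ENSG00000198911, chromosome 22, 41833079 to 41907308, forward strand), which encodes the form that favours cholesterol genes, was at 169 and 169 CPM in NEG and 148 and 147 CPM in POS. Both POS libraries were lower, yet SREBF2 did not pass (log2 fold change -0.19; edgeR adjusted p = 0.0566), while it did with DESeq2 (adjusted p = 0.0482), limma-voom (adjusted p = 0.0410), total count scaling (edgeR adjusted p = 0.00782) and a filter at 1 CPM in 2 libraries (edgeR adjusted p = 0.0372), and without either POS library (edgeR adjusted p = 0.00225 and 0.00389). SREBF1 counts were 0.685 and 0.671 of those of SREBF2 in NEG and 1.18 and 1.11 of them in POS. SCAP, the escort protein gene, was at 63.6 and 60.8 CPM in NEG and 59.9 and 62.3 CPM in POS, which overlapped (edgeR adjusted p = 0.860).

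STARD4, a soluble carrier that moves cholesterol between membranes, was at 72.8 and 65.7 CPM in NEG and 76.1 and 82.0 CPM in POS. It lay higher in both POS libraries without passing (log2 fold change 0.19; edgeR adjusted p = 0.080), and passed without POS library 1 (edgeR adjusted p = 7.27e-04). STARD4-AS1 had 51.3% of its counts.

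The LXR and efflux genes were split. ABCA1 (ENSG00000165029, chromosome 9, 104781002 to 104928237, reverse strand), the transporter that hands cholesterol to apolipoprotein A-I, was at 24.2 and 24.3 CPM in NEG and 30.4 and 30.2 CPM in POS. It rose 1.25-fold and the lines did not overlap (log2 fold change 0.32, standard error 0.08, edgeR adjusted p = 0.00331). That call was lost without either NEG library (edgeR adjusted p = 0.0626 and 0.0625) and with total count scaling (edgeR adjusted p = 0.0576). MYLIP (ENSG00000007944, chromosome 6, 16129125 to 16148248, forward strand), which like ABCA1 is a textbook LXR target, went the other way, from 27.5 and 25.9 CPM in NEG to 17.8 and 17.0 CPM in POS (log2 fold change -0.62, standard error 0.08; edgeR adjusted p = 7.90e-06). ABCA1 counts were 0.879 and 0.939 of those of MYLIP in NEG and 1.70 and 1.78 times them in POS.

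NR1H3, the gene of LXR alpha, was at 9.35 and 8.19 CPM in NEG and 10.9 and 10.8 CPM in POS, a 1.24-fold rise close to the threshold (log2 fold change 0.31, standard error 0.11; edgeR adjusted p = 0.0423). It lost the call without either NEG library (edgeR adjusted p = 0.0653 and 0.445), without a count filter (edgeR adjusted p = 0.0512), with total count scaling (edgeR adjusted p = 0.199) and with DESeq2 (adjusted p = 0.12), and ACP2, which overlaps it on the opposite strand, had 192% of its counts. NR1H2, the gene of LXR beta, was at 58.4 and 59.3 CPM in NEG and 57.2 and 59.6 CPM in POS and overlapped (edgeR adjusted p = 0.94). ABCG1, which exports cholesterol to high-density lipoprotein, had 37 and 42 counts in NEG and 33 and 25 counts in POS, under 1 CPM throughout, and a change of the size seen for ABCA1 was not detectable at this depth (log2 fold change -0.33, standard error 0.34; edgeR adjusted p = 0.563).

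**Figure D3:**
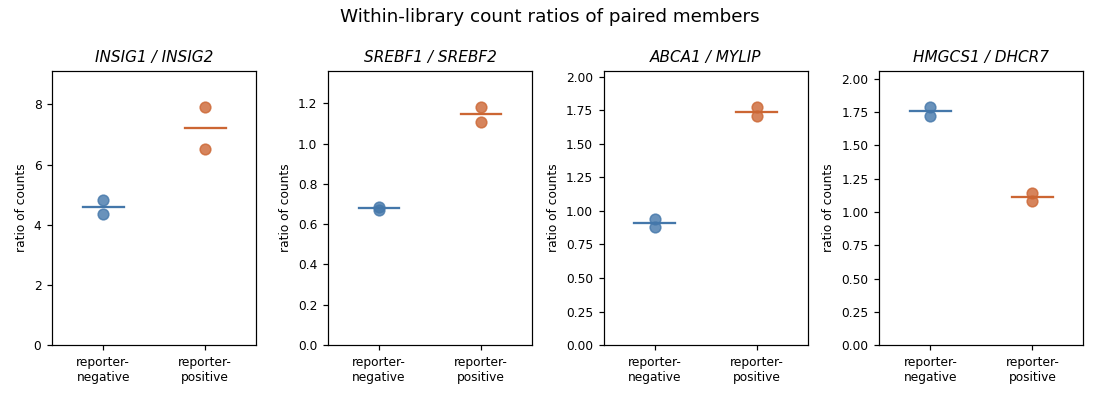
Ratios of raw counts within each library for 4 pairs of members, with 2 points per line and a bar at their mean, on axes that start at 0. INSIG1 to INSIG2, SREBF1 to SREBF2 and ABCA1 to MYLIP lie higher in both POS libraries, and HMGCS1 to DHCR7 lies lower in both.

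Genes next to each member on the chromosome were set beside it, from protein-coding genes tested within 1 Mb that do not overlap the member. Of the 29 such neighbours of SREBF1, 24 rose and none fell, and their median log2 fold change was 0.55, against 0.56 for SREBF1. NR1H3 was likewise near its neighbours, of which 21 of 29 rose and none fell, with a median of 0.37 against 0.31 for the gene. INSIG1 at 0.83 lay above the median of 0.37 of its 6 neighbours, of which 3 rose and 1 had a larger log2 fold change than INSIG1. ABCA1 rose among 7 neighbours with a median of -0.21, none of which reached its change. The part of the neighbourhood in the calls of SREBF1, NR1H3, INSIG1, ABCA1 and the members that fell was not tested.

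Each of the 14 members that fell lay below the median of its neighbours, a comparison made after the values were seen and among genes selected for being low. MSMO1, at -0.49, lay among 10 neighbours of which 6 rose and none fell, with a median of 0.47, and NSDHL, at -0.26, among 28 of which 11 rose, with a median of 0.22. HMGCS1, at -0.77, was lower than each of its 12 neighbours (median 0.07) and IDI1, at -0.79, lower than each of its 9 (median -0.18). TM7SF2 sat in a dense stretch where 23 of 85 neighbours fell and the median was -0.13, and MVK among 28 neighbours of which 9 fell, with a median of -0.13. FDFT1, at -0.58, had 12 neighbours with a median of -0.17, of which 2 fell. LSS, at -0.35, had 15 with a median of -0.15, of which 6 fell. MYLIP, at -0.62, had 5 with a median of -0.19, of which 2 fell. For 6 of the 14 members the median of the neighbours was under -0.1.

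**Figure D4:**
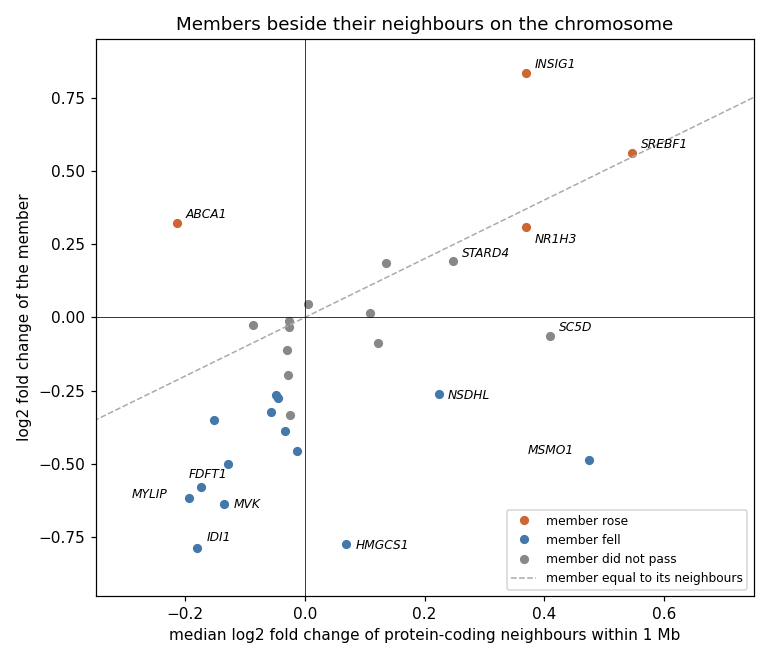
Log2 fold change of each member (vertical axis) against the median log2 fold change of its protein-coding neighbours within 1 Mb (horizontal axis), with a dashed line where both are equal. SREBF1 and NR1H3 lie close to the line, INSIG1 and ABCA1 above it, and MSMO1, HMGCS1 and IDI1 well below it.

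Genes of the wider pathway that are not among the 30 were taken from lists by function, also chosen with earlier results of these data known. Of 84 listed genes 83 were tested, and 16 rose, 10 fell and 57 did not pass, with a median log2 fold change of -0.0096. By the same rule 11.6% of all genes tested rose and 10.9% fell. Of 16957 protein-coding genes tested, 2491 rose and 2508 fell. The counts per list below are to be read beside these shares, and no list was tested as a set. The split depended on the library scaling and on single libraries. With total count scaling 8 rose and 16 fell, and fewer passed in each direction without either NEG library. The share of all genes called in those fits was not computed.

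Among 6 genes of acetyl-CoA supply and side steps, 3 rose and 1 fell. LBR, the lamin B receptor, which carries the same C14-sterol reductase activity as TM7SF2, was at 59.5 and 59.4 CPM in NEG and 83.5 and 87.1 CPM in POS (log2 fold change 0.52; edgeR adjusted p = 1.20e-05), a rise where TM7SF2 fell. ACSS2, which makes acetyl-CoA from acetate, fell by 0.47 on the log2 scale and overlaps GGT7, while the mitochondrial thiolase gene ACAT1 (overlapped by ENSG00000255467 and ENSG00000285696) and FAXDC2 (overlapped by CNOT8) rose 1.19-fold and 1.23-fold. Of the 31 neighbours of ACSS2 25 fell (median -0.30), and of the 12 neighbours of ACAT1 8 rose (median 0.48), whereas LBR lay above all 15 of its neighbours (median 0.19).

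Of 15 genes for SREBP cleavage and sterol-regulated degradation, 5 rose and 1 fell. PAQR3, which anchors SCAP and SREBP at the Golgi and overlaps BMP2K, rose 1.40-fold. MARCHF6, the ubiquitin ligase that degrades squalene epoxidase, rose 1.32-fold, from 85.2 and 81.9 to 108 and 112 CPM. SQLE transcripts went the other way, and SQLE protein was not measured. MARCHF6 lay among 9 neighbours of which 5 rose (median 0.56 against its 0.40). RNF145, another ubiquitin ligase of the endoplasmic reticulum, rose 1.29-fold, and TMEM97, which binds the lysosomal transporter NPC1 and overlaps IFT20, fell by 0.43 on the log2 scale. Among 10 lipoprotein uptake and lysosomal genes, 1 fell and none rose, with 0 higher also at an unadjusted p under 0.05 and by DESeq2 or limma-voom. The gene that fell was NPC1, which exports cholesterol from lysosomes and overlaps RMC1, lower by 0.23 on the log2 scale (from 170 and 165 to 139 and 147 CPM; edgeR adjusted p = 0.0269).

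Sterol transfer, storage and oxidation genes gave 2 higher and 3 lower of 18. HSD3B7, an enzyme of bile acid synthesis overlapped by ENSG00000279196, fell to 56.6% of its NEG level, OSBP, which carries sterol at contacts of the endoplasmic reticulum with the Golgi, rose 1.35-fold, and its relatives OSBPL2 and OSBPL5 fell by 0.37 and 0.26 on the log2 scale. OSBP, at 0.43, lay among 22 neighbours with a median of 0.54, of which 9 rose, and OSBPL2 among 24 with a median of -0.30, of which 16 fell. HSD3B7 was lower than 69 of its 70 neighbours (median -0.10). LXR targets and partners were mixed, with 3 higher and 4 lower of 10. RXRA, the obligate partner receptor of the LXRs, fell from 58.1 and 56.8 to 36.5 and 33.8 CPM (log2 fold change -0.71; edgeR adjusted p = 3.74e-07) and its paralogue RXRB, overlapped by SLC39A7, fell by 0.41 on the log2 scale. All 20 neighbours of RXRA lay above it, with a median of -0.33, but 12 of them fell too and none rose. APOE, an LXR target overlapped by ENSG00000280087, rose 1.48-fold at 3.83 to 6.34 CPM, and the corepressor gene NCOR1, overlapped by TTC19 and PIGL, rose 1.54-fold among neighbours of which 18 of 26 rose (median 0.47).

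In the isoprenoid branch after the prenyl diphosphates 3 of 14 genes rose by edgeR. NUS1, for dolichol synthesis, rose 1.30-fold, and the coenzyme Q genes COQ2 and PDSS1 (overlapped by ABI1) rose 1.25-fold and 1.29-fold. PDSS1, at 0.37, lay near the median of 0.34 of its 9 neighbours, of which 5 rose. None of the 14 fell, with 2 lower at an unadjusted p under 0.05 and 0 by DESeq2 or limma-voom. None of 10 SREBP-driven fatty acid genes passed by edgeR, with 2 higher and 1 lower at an unadjusted p under 0.05, and 0 passed by DESeq2 or limma-voom. SCD, the stearoyl-CoA desaturase gene, was at 1002 and 1026 CPM in NEG and 847 and 955 CPM in POS (log2 fold change -0.17; edgeR adjusted p = 0.220), and FADS2, which overlaps FADS1, was at 712 and 745 CPM in NEG and 665 and 721 CPM in POS (edgeR adjusted p = 0.645).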

How the data were processed

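Raw counts for each gene (Ensembl ID) and library were used as the authors deposited them. The submitters' processing notes name HISAT2, Bowtie2, DESeq2 and build hg19. How reads were counted, with which annotation and strand setting, was not given in the sources used here. Every one of the 43714 gene IDs is in GENCODE release 29 on GRCh38, which gave the positions printed, since the table holds none. ENSG00000285772, which shares 22645 bases with CYP51A1, had 6207 counts to its 6174 in NEG library 1, so a read appears to be counted at each gene it overlaps. For each gene named, overlapping genes are named where their counts reached 10% of its own; subtracting their counts removes too many where the spans overlap only in part.

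Genes were tested across the whole table with edgeR 4.0.16 (R 4.3.3), using TMM scaling, filterByExpr (minimum count 10, minimum total count 15), a robust quasi-likelihood F test with a term for the line alone, and p-values adjusted by Benjamini-Hochberg over 30952 genes with a threshold of 0.05. The fit was also run on counts simulated from the means and spread of these libraries. That cannot show whether the libraries of a line are independent. Standard errors are the log2 fold change divided by the square root of F. CPM values use TMM-scaled library sizes. The alternatives tried were other scalings (RLE, total count), other filters (none, or 1 CPM in at least 2 libraries), other tools (limma-voom of limma 3.58.1, DESeq2 1.42.0), a block for the library number, each library left out in turn, and overlapping counts subtracted.

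One leukocyte marker is not reported here. Members and lists were chosen with earlier results of these data known. All members are named, and from each other list up to 4 passing genes with the smallest adjusted p, or the 2 with the highest CPM where none passed. Promoters were to be printed for at most 6 called members holding a motif.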

Additional observations from a re-analysis of the deposited data

How the results depend on the processing

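Of the 18 members that passed, 11 kept their call under every alternative that gave them a value (ACAT2, FDFT1, HMGCS1, IDI1, INSIG1, MSMO1, MVD, MVK, MYLIP, SREBF1, TM7SF2), and none of the 18 changed sign. Leaving out 1 library at a time gave 10 to 17 lower and 2 to 5 higher members, 9 to 15 lower enzymes, and 7 to 23 higher and 6 to 15 lower genes of the other lists. Total count scaling, which moved the median of all genes by -0.084, gave 2 higher members and 8 higher and 16 lower genes of the other lists, and turned GGPS1 to -0.072 and EBP to -0.039. Among members that did not pass, the fits without 1 library spanned 0 for PMVK (-0.082 to 0.010), GGPS1 (-0.092 to 0.11), EBP (-0.036 to 0.12), SC5D (-0.21 to 0.067), SCAP (-0.062 to 0.012) and NR1H2 (-0.048 to 0.020). With the library number as a replicate block, 5 members were higher, STARD4 having joined (edgeR adjusted p = 0.0474), and 14 were lower. The labels do not say whether libraries of equal number share a culture or day. The correlation of within-line differences over all genes tested was -0.026, which cannot decide this because noise at low counts can mask a shared effect. Subtracting overlapping counts left a positive remainder for 14 members and changed no call among them. Where the counts subtracted are reads of the member itself, the remainder repeats its change, so unchanged calls do not show robustness. The subtraction could not be done for ACAT2, CYP51A1, GGPS1, MVK, NR1H3 and TM7SF2. ABCG1, under 1 CPM, had no value with the stricter filter.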

Other observations

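Pseudogene copies of enzymes were looked at after the values were seen. HSD17B7P2, a copy of HSD17B7, had 750 and 709 counts in NEG and 508 and 390 counts in POS and fell by 0.59 on the log2 scale (edgeR adjusted p = 2.55e-04), whereas HSD17B7 itself did not pass at -0.09 (the difference between them was not tested). CYP51A1P2 had 2240 and 2196 counts in NEG and 1687 and 1667 counts in POS and fell by 0.28, close to the -0.27 of CYP51A1 (edgeR adjusted p = 0.0196). CYP51A1P1 (log2 fold change -0.23; edgeR adjusted p = 0.0819) and FDPSP2, a copy of FDPS (log2 fold change -0.40; edgeR adjusted p = 0.174), did not pass. Reads of a gene and of a near-identical copy may be assigned to either, so the levels of HSD17B7, CYP51A1 and FDPS are uncertain to that extent, and how the reads were divided was not tested.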
